A study of Homo sapiens with 16 samples.

Results

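The genes described here are the RFX transcription factors measured in U2OS cells and the partner subunits of the RFX complex. They are RFX1, RFX2, RFX3, RFX5, RFX7, RFXANK and RFXAP, chosen by symbol, and all 7 were in each of the authors' 4 deposited tables, out of 23396 genes in any table. U2OS is a human osteosarcoma line with wild-type p53. Poly(A) RNA was sequenced from 4 groups of 4 libraries: a control siRNA (siControl) with DMSO, siControl with 10 µM Nutlin-3a, a siRNA against RFX7 (siRFX7) with DMSO, and siRFX7 with 10 µM Nutlin-3a, each after 24 h. Nutlin-3a keeps MDM2 off p53, which then accumulates; DMSO is its solvent. All groups carried a transfected siRNA, siRFX7 is the only siRNA against RFX7 that the labels name, and the labels do not say whether the libraries of a group came from separate cultures, so p-values measure the spread between these libraries, which may be technical.

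RFX proteins bind DNA through a winged-helix domain that recognises the X-box, an imperfect inverted repeat. RFX1, RFX2 and RFX3 are best known for genes of the cilium. RFX5 works in a complex with RFXANK, an ankyrin-repeat adaptor, and RFXAP, an accessory subunit; on the X-box of MHC class II promoters this complex acts with NF-Y, CREB and the coactivator CIITA, and loss of any of its subunits causes bare lymphocyte syndrome. RFX5 and RFX7 are the closest relatives within the family, and RFX7 is known as a mediator of part of the p53 response. The design addressed which transcripts depend on RFX7 with and without p53 activation.

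The tables hold comparisons of 2 groups of 4 libraries and no value of a single library, so each error below is the authors' standard error (SE) of a log2 fold change, and levels are group means. The base means, the mean size-factor normalised counts per gene, added up to between 27946376 and 35311111 per library. A gene is called where the authors' adjusted p, by DESeq2 with Benjamini-Hochberg adjustment over all genes of a table, is under 0.05. Of the osteoblast markers, base means in the siControl table of Nutlin-3a were 39039 for COL1A1, 31574 for SPARC, 432 for RUNX2 and 371 for ALPL. They were 170 for SPP1, 13.2 for COL1A2 and 4.25 for BGLAP, while SP7 and IBSP were in no table. Among markers of antigen presenting cells, MS4A1 was in no table, CD14, PTPRC and CD79A had base means of 3.39 to 7.39 in the siControl table of Nutlin-3a, and ITGAX, at base means of 72.6 to 185, rose by 1.27 and 1.58 on the log2 scale with Nutlin-3a in siControl and siRFX7 by the authors' deposited tables. Of 3 epithelial markers 2, CDH1 and EPCAM, were present and called higher with siRFX7 under both treatments, with log2 fold changes of 0.41 to 1.10 in the authors' deposited tables; their part in the results below was not tested. In bulk RNA, fewer cells with a transcript and less of it per cell cannot be told apart.

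RFX7 (ENSG00000181827, chr15:56087280-56243266, minus strand, in GENCODE 29 on GRCh38), the targeted gene, was strongly reduced in both siRFX7 groups; its sign was used to settle the direction of the tables, so only the size of the change is a measurement here. On 1 common scale its group level was 2237 normalised counts in siControl with DMSO, 2657 in siControl with Nutlin-3a, 417 in siRFX7 with DMSO and 515 in siRFX7 with Nutlin-3a. Both siRFX7 groups were low and both siControl groups high. The 95% interval of what was left ran from 17.1 to 20.4% of siControl under DMSO and from 17.7 to 21.2% under Nutlin-3a, from the authors' deposited values. Of the genes whose base mean reached 100, RFX7 had the lowest of 13170 log2 fold changes under DMSO and the third lowest of 13177 under Nutlin-3a. Nutlin-3a raised RFX7 to 119% of the DMSO level in siControl (95% interval 111 to 127) and to 123% in siRFX7 (109 to 139; adjusted p 6.69e-06 and 2.62e-03 by the authors' DESeq2 test). The fold rise in siRFX7 divided by that in siControl had a 95% interval of 0.903 to 1.19, so a difference between them was not detectable. The call in siControl was lost with a size of at least 0.25, and that in siRFX7 with Bonferroni adjustment.

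RFX5 (ENSG00000143390, chr1:151340640-151347357, minus strand), the DNA-binding subunit of the RFX complex, was the member that turned direction. Its group level was 3060 normalised counts in siControl with DMSO, 3947 in siControl with Nutlin-3a, 2101 in siRFX7 with DMSO and 1747 in siRFX7 with Nutlin-3a. Nutlin-3a raised it in siControl and lowered it in siRFX7, and both siRFX7 groups were below both siControl groups. In the authors' deposited tables, the log2 fold change with Nutlin-3a was 0.37 ± 0.04 (SE, 4 against 4 libraries; adjusted p 1.44e-19) in siControl and -0.27 ± 0.05 (adjusted p 8.75e-07) in siRFX7. That is a rise to 129% of the DMSO level (95% interval 122 to 136) in siControl and a fall to 83.1% (77.5 to 89.0) in siRFX7. The difference of these responses, siRFX7 minus siControl, was -0.64 ± 0.06 (two-sided normal test on the deposited values, Benjamini-Hochberg adjusted p 1.18e-19 over 21339 genes). By p-value it ranked at 8 of these 21339 genes, and by size at 25 from the lowest of 13216 genes with an average base mean of 100 or more.

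With siRFX7, RFX5 stood at 68.7% of siControl under DMSO (95% interval 64.7 to 72.9) and at 44.3% under Nutlin-3a (41.7 to 47.0), from the authors' deposited values. Under DMSO its log2 fold change was at 406 from the lowest of the same 13170 genes, and under Nutlin-3a at 38 of 13177. By p-value in the authors' deposited tables it ranked at 247 under DMSO and at 9 under Nutlin-3a. The siRFX7 effect under Nutlin-3a and the Nutlin-3a response in siControl share the siControl Nutlin-3a libraries, so they are given side by side and not as independent evidence.

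**Figure D1:**
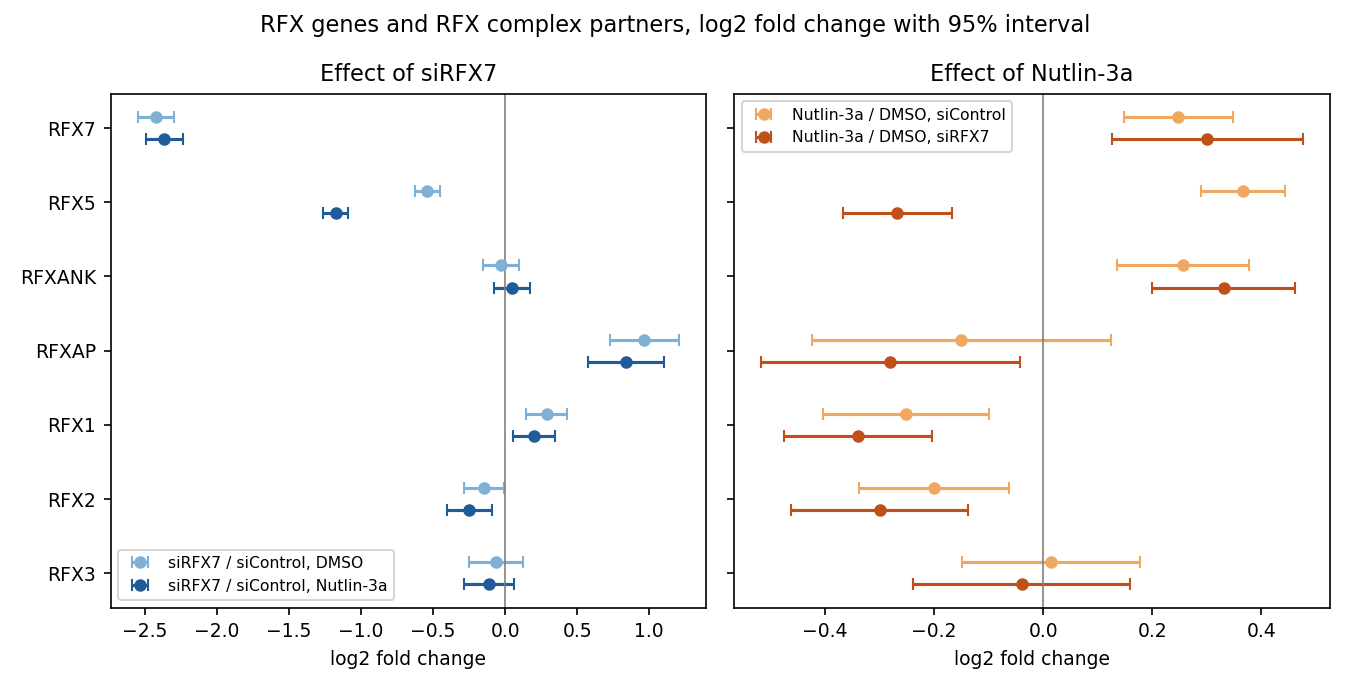
Log2 fold changes from the authors' deposited tables for the 7 genes, with siRFX7 against siControl on the left and Nutlin-3a against DMSO on the right. Points are estimates from 4 against 4 libraries and bars are 95% intervals. RFX5 lies at 0.37 and -0.27 with Nutlin-3a in siControl and siRFX7, while RFXAP lies at 0.97 and 0.84 with siRFX7.

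The sequence before the start of RFX5 is shown because this gene carries the main result and RFX factors bind DNA. RefSeq windows of 300 bases (GRCh38.p14, 250 before to 50 after a start) were matched by symbol for 6 of the 7 genes, in 12 windows. The full X-box (both arms, 2 bases between them, no mismatch, either strand) was in 0 of the 12 windows and in 0.746% of all 35116. A word like a single arm, GTTNCC on either strand, is called an arm below. Its letters differ from the arms of the full X-box above, which take only A or G in place of its N. It was in 5 of the 12 windows, of RFX1, RFX5, RFX7 and RFXANK, and in 45.4% of all windows. CCAAT, the letters NF-Y binds, on either strand, was in 34.6% of all windows. The 250 bases before the outermost RefSeq start of RFX5, chr1:151347253-151347502, minus strand, hold 1 arm 164 bases before that start. They also hold 2 copies of CCAAT at 177 and 95 bases before it, and the arm and both copies are in capitals. RFX5 in GENCODE 29 reaches to chr1:151347357, so part of these bases, with the nearer CCAAT, lies inside that gene.
RFX5: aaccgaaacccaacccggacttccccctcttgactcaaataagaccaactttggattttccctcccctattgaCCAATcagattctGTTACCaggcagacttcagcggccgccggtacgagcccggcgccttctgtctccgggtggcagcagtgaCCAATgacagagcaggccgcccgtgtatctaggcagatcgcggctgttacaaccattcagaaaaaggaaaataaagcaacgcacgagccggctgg
The other 2 RFX5 windows held no arm. These matches describe letters only, and with this share of windows holding an arm they do not set RFX5 apart.

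RFXANK (ENSG00000064490, chr19:19192229-19201869, plus strand), the ankyrin-repeat subunit, followed Nutlin-3a but not the knockdown. Its group level was 731 normalised counts in siControl with DMSO, 873 in siControl with Nutlin-3a, 717 in siRFX7 with DMSO and 903 in siRFX7 with Nutlin-3a. The Nutlin-3a groups were high and the DMSO groups low, with either siRNA. By the authors' deposited tables, Nutlin-3a raised it by 0.26 ± 0.06 (SE; adjusted p 1.43e-04) in siControl and by 0.33 ± 0.07 (adjusted p 4.37e-06) in siRFX7, on the log2 scale. With siRFX7 it was at 98.1% of siControl under DMSO (95% interval 89.9 to 107) and at 103% under Nutlin-3a (94.9 to 113). The call in siControl was lost with Bonferroni adjustment. The exons of RFXANK overlap those of BORCS8 and NR2C2AP on the other strand by 14.5% and 8.83% of their length in GENCODE 29. Whether counting used strand is not given in the sources used here, so reads of these genes may not be told apart. NR2C2AP had log2 fold changes of -0.36 and -0.41 with Nutlin-3a in siControl and siRFX7 in the authors' deposited tables, opposite to RFXANK. With siRFX7, NR2C2AP was at -0.30 under DMSO and -0.35 under Nutlin-3a, both called. BORCS8 was at 0.20 (not called) and 0.25 (called), in the same order. The part of such reads in the siRFX7 values of RFXANK was not tested.

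RFXAP (ENSG00000133111, chr13:36819224-36829104, plus strand), the accessory subunit, was higher with siRFX7. Its group level was 123 normalised counts in siControl with DMSO, 111 in siControl with Nutlin-3a, 240 in siRFX7 with DMSO and 198 in siRFX7 with Nutlin-3a. Both siRFX7 groups were above both siControl groups. Its log2 fold change with siRFX7 in the authors' deposited tables was 0.97 ± 0.12 (SE; adjusted p 1.05e-13) under DMSO and 0.84 ± 0.13 (adjusted p 6.05e-09) under Nutlin-3a. That is 196% of siControl (95% interval 165 to 231) and 179% (149 to 215). It stood at 45 from the highest of 13170 genes whose base mean reached 100 under DMSO and at 71 of 13177 under Nutlin-3a. With Nutlin-3a its log2 fold changes were -0.15 ± 0.14 in siControl and -0.28 ± 0.12 in siRFX7 (adjusted p 0.452 and 0.0526 by the authors' DESeq2 test), and neither was called. With Benjamini-Hochberg adjustment over genes whose base mean reached 100, the fall in siRFX7 was called (adjusted p 0.0366). RFXAP had the lowest count of the 7 genes in all 4 groups and the widest intervals.

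The transcript levels of the 3 subunits of the RFX complex lay closer together in siRFX7 than in siControl. Per kilobase of exon, RFX5 stood at 2.28 times RFXANK in siControl with DMSO, at 2.47 times with Nutlin-3a, at 1.6 times in siRFX7 with DMSO and at 1.06 times with Nutlin-3a. The excess of RFX5 over RFXANK was thus smallest where both siRFX7 and Nutlin-3a were given. The ratio of RFX5 to RFXAP per kilobase was 12.5 and 17.9 in siControl and 4.41 and 4.44 in siRFX7, with DMSO and Nutlin-3a in that order. These ratios compare group means of different genes by annotated exon length, and whether neighbours such as RFX5 and RFXANK in siRFX7 with Nutlin-3a differ beyond the spread of libraries was not tested. Protein amounts were not measured.

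**Figure D2:**
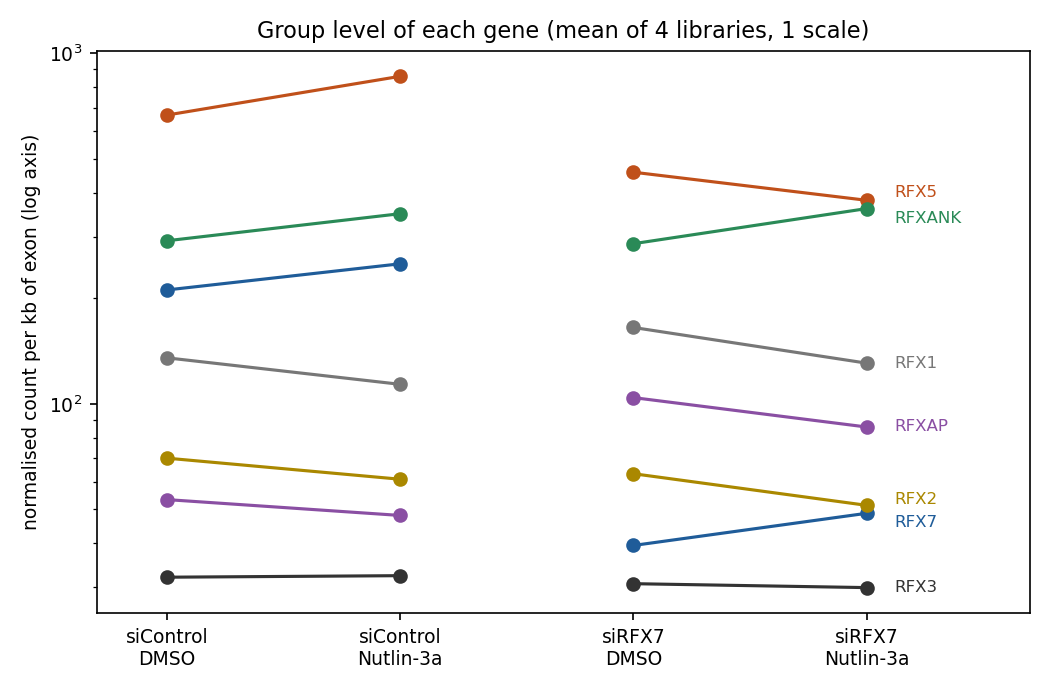
Group level of each gene, as normalised count per kilobase of exon on a log axis, in the 4 groups (mean of 4 libraries, 1 scale, no error drawn). RFX5 rises from 667 to 861 in siControl and falls from 458 to 381 in siRFX7, where RFXANK stands at 361.

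RFX1 (ENSG00000132005, chr19:13961538-14007039, minus strand), a broadly expressed family member, was lower with Nutlin-3a and higher with siRFX7. Its group level was 739 normalised counts in siControl with DMSO, 621 in siControl with Nutlin-3a, 903 in siRFX7 with DMSO and 714 in siRFX7 with Nutlin-3a. The Nutlin-3a group was the lower one with either siRNA. Its log2 fold change with Nutlin-3a by the authors' deposited tables was -0.25 ± 0.08 (SE; adjusted p 4.26e-03) in siControl and -0.34 ± 0.07 (adjusted p 5.12e-06) in siRFX7. With siRFX7 the authors' deposited tables gave 0.29 ± 0.07 (adjusted p 3.15e-04) under DMSO and 0.20 ± 0.08 (adjusted p 0.0263) under Nutlin-3a. The value under Nutlin-3a no longer passed at an adjusted p of 0.01 or with a size of at least 0.25. With Bonferroni adjustment, only the RFX1 call with Nutlin-3a in siRFX7 was kept.

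RFX2 (ENSG00000087903, chr19:5993164-6199572, minus strand), which acts in ciliogenesis and spermatogenesis, was also lower with Nutlin-3a. Its group level was 636 normalised counts in siControl with DMSO, 554 in siControl with Nutlin-3a, 574 in siRFX7 with DMSO and 467 in siRFX7 with Nutlin-3a. The siRFX7 group with Nutlin-3a was the lowest. Its Nutlin-3a response in the authors' deposited tables was -0.20 ± 0.07 (SE; adjusted p 0.0141) in siControl and -0.30 ± 0.08 (adjusted p 1.15e-03) in siRFX7. With siRFX7 it was -0.15 ± 0.07 under DMSO (adjusted p 0.0965, not called) and -0.25 ± 0.08 under Nutlin-3a (adjusted p 8.68e-03, called) in the authors' deposited tables. These siRFX7 effects did not differ detectably: their difference, which is that of the Nutlin-3a responses, was -0.10 ± 0.11 (95% interval -0.31 to 0.11). Of its 3 calls, only that with Nutlin-3a in siRFX7 was kept with a size of at least 0.25, and none with Bonferroni adjustment.

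RFX3 (ENSG00000080298, chr9:3218297-3526004, minus strand), a regulator of ciliogenesis, was not called in any comparison. Its group level was 357 normalised counts in siControl with DMSO, 361 in siControl with Nutlin-3a, 342 in siRFX7 with DMSO and 334 in siRFX7 with Nutlin-3a. The 4 values lay within a narrow range. The 95% intervals from the authors' deposited tables reached from -0.25 to 0.13 with siRFX7 under DMSO, from -0.29 to 0.06 with siRFX7 under Nutlin-3a, and from -0.24 to 0.18 over the Nutlin-3a comparisons, on the log2 scale. A change of RFX3 within these bounds was not detectable here.

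Counted over the 7 genes, the calls were spread in both directions. With siRFX7 under DMSO, 4 of 7 were called, RFX1 and RFXAP higher and RFX5 and RFX7 lower, in the authors' deposited table that called 37.4% of all genes (19.9% higher and 17.5% lower). Under Nutlin-3a, 5 of 7 were called, with RFX2 also lower, against 32.6% of all genes (17.2% higher, 15.4% lower). With Nutlin-3a in siControl, 5 of 7 were called, RFX5, RFX7 and RFXANK higher and RFX1 and RFX2 lower, against 37.9% of all genes (18.3% higher, 19.6% lower). In siRFX7, 5 of 7 were called as well, with RFX5 now among the lower ones, against 39.1% of all genes (18.7% higher, 20.3% lower). With this many genes called in every table, the number of called members is not a result about the family; the sizes for RFX7, RFX5 and RFXAP are its large values. The Nutlin-3a responses differed between siRFX7 and siControl for 1 of 7, RFX5, where 0.937% of 21339 genes did (0.173% higher and 0.764% lower in siRFX7). For the 6 others the difference lay between -0.13 and 0.07, each with an adjusted p of 0.99997 over all genes, and the widest 95% interval, that of RFXAP, ran from -0.49 to 0.23.

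In all 4 groups RFX5 had the highest level per kilobase of exon, followed by RFXANK, and RFX3 the lowest. In siControl the order of the others was RFX7, RFX1, RFX2 and RFXAP, and in siRFX7 it was RFX1, RFXAP, RFX2 and RFX7. RFX7 thus dropped from the third place to the sixth with its siRNA, from 211 to 39.4 normalised counts per kilobase under DMSO. RFX2 at 51.3 and RFX7 at 48.7 in siRFX7 with Nutlin-3a are neighbours whose order was not tested. RFX4, RFX6 and RFX8, other genes of the family, were in none of the authors' tables, which hold no gene without an adjusted p.

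**Figure D3:**
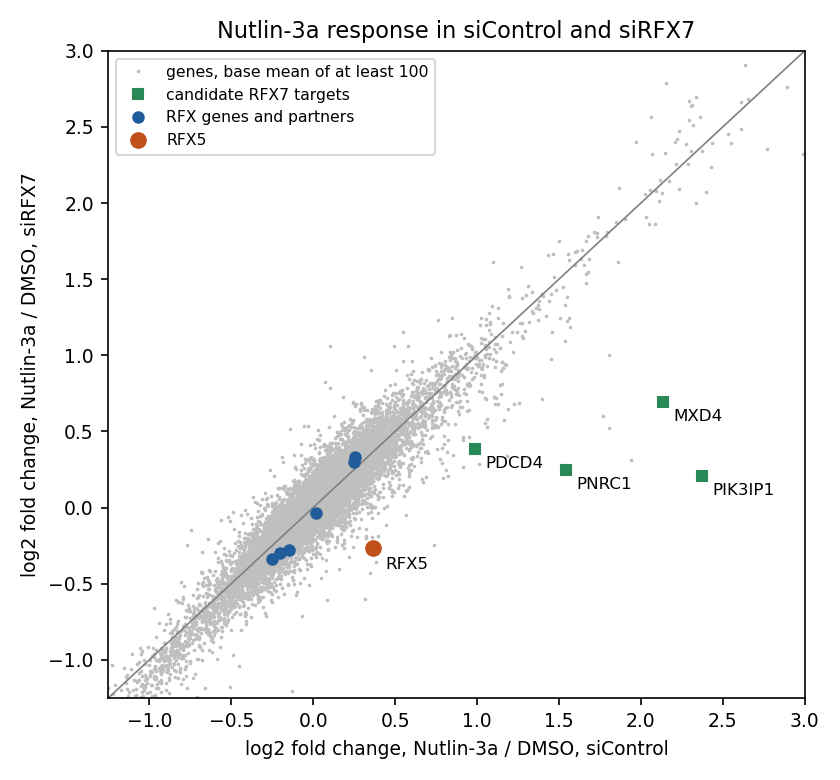
Log2 fold change with Nutlin-3a in siRFX7 (vertical) against that in siControl (horizontal), from the authors' deposited tables that share no library, for genes with an average base mean of 100 or more; the line marks equal responses, and genes beyond the axes are not drawn. RFX5 lies below the line at 0.37 and -0.27, as do PIK3IP1, MXD4, PNRC1 and PDCD4, while the other 6 members lie near it.

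Genes with a pattern like RFX5 were sought over the 4 deposited log2 fold changes, among 12178 genes with a symbol and base means of 100 or more throughout. The nearest was PIK3R3, a regulatory subunit of PI3K (distance 0.399). It rose by 0.32 ± 0.05 (SE) with Nutlin-3a in siControl in the authors' deposited table and its Nutlin-3a response in siRFX7 cells was -0.60 ± 0.08 in another of the authors' deposited tables. The second, at 0.426, was RPL23AP2, a ribosomal protein pseudogene whose reads can be shared with its parent gene and whose difference of responses was -0.22 ± 0.17. The third, at 0.521, was TSPYL2, a nucleosome assembly protein family member, at 0.35 ± 0.05 and -0.43 ± 0.06 by the authors' deposited tables. The Nutlin-3a responses of PIK3R3 and TSPYL2 differed by -0.92 ± 0.09 and -0.78 ± 0.08, a description with no test, since both genes were picked for this pattern. Nearest to RFXAP were MSRB3, a methionine sulfoxide reductase (distance 0.0299), TCTN2, a protein of the ciliary transition zone (0.115), and BOD1, a kinetochore protein (0.136). By the authors' deposited tables, siRFX7 raised MSRB3 by 0.95 ± 0.05 (SE) with DMSO and by 0.83 ± 0.05 with Nutlin-3a. Nothing lay close to RFX7: SPOCK1, AHCYP2, a pseudogene, and MRPS35 were nearest at 1.25, 1.26 and 1.33.

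The 4 candidate RFX7 targets, known from the study's publication, possibly on the same libraries, are the reference for RFX5. PDCD4, PIK3IP1, MXD4 and PNRC1, which restrain translation, PI3K signalling, MYC activity and growth, all had a lower Nutlin-3a response in siRFX7. By the authors' deposited tables, siRFX7 gave them a median of -0.40 with DMSO and -1.67 with Nutlin-3a, beside -0.54 and -1.18 for RFX5. In siControl all 4 rose by 0.99 to 2.37 on the log2 scale with Nutlin-3a by the authors' deposited table, against 0.37 for RFX5. PDCD4 was at 0.39 ± 0.08 (SE) with Nutlin-3a in siRFX7 and RFX5 at -0.27 ± 0.05 in the same authors' deposited table. The list was chosen with results of this kind known and is no independent support.

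MHC class I genes, whose promoters carry the same X-box and Y-box module as class II, were lower with siRFX7 under Nutlin-3a. Of 6 in the authors' deposited table, 6 were called lower, as were 15.4% of all genes, with a median of -0.26 against -0.01 for all genes. Under DMSO 3 of 6 were called lower, as were 17.5% of all genes, with a median of -0.11. With a size of at least 0.25 these counts were 3 and 1. The lowest under Nutlin-3a was HLA-F, a non-classical class I chain, at -0.60 ± 0.12 (SE; adjusted p 5.95e-06), and the highest was B2M, the light chain of every class I molecule, at -0.13 ± 0.04 (adjusted p 3.00e-03), in that authors' deposited table. With DMSO the authors' deposited table put HLA-F at -0.66 ± 0.12 and B2M at -0.03 ± 0.04, of which only the former was called. HLA genes are close copies of each other and vary between genomes, so reads can be split between them.

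MHC class II genes, the known targets of the RFX5 complex, were sparse in these cells. HLA-DRA and CD74, the most abundant class II transcripts of antigen presenting cells, were in no table, and 3 of 12 and 4 of 12 class II genes were in the authors' deposited tables for siRFX7 under DMSO and Nutlin-3a. CIITA stood at base means of 4.75 and 4.90 by the authors' deposited tables for Nutlin-3a in siControl and siRFX7, the lowest of the co-factors. HLA-DQB1 was the class II gene that moved, with base means of 44.4 to 105 between tables. It rose by 1.30 ± 0.17 (SE; adjusted p 1.04e-13) with Nutlin-3a in siControl and was at 0.30 ± 0.22 in siRFX7, and its siRFX7 effect was -0.20 ± 0.21 under DMSO and -1.20 ± 0.18 (adjusted p 7.46e-10) under Nutlin-3a, by the authors' deposited tables. The responses differed by -1.01 ± 0.28 (Benjamini-Hochberg adjusted p 0.0362). Its mean base mean in that test was 74.7, and at an adjusted p of 0.01 the difference was not called.

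The co-factors on MHC promoters had log2 fold changes between -0.20 and 0.19 with siRFX7 in the authors' deposited tables. Of 5 in the authors' deposited table under DMSO, 1 was called higher (NFYC, 0.19 ± 0.04 SE) and 1 lower (NFYB, -0.20 ± 0.08). Of all genes under DMSO, 19.9% were called higher and 17.5% lower. Under Nutlin-3a 0 of 5 were called, where 32.6% of all genes were. At an unadjusted p, NFYB and NFYC were under 0.05 there too. NFYB and NFYC are subunits of NF-Y, and the authors' deposited table put them at -0.20 ± 0.09 (SE) and 0.10 ± 0.05. With Nutlin-3a, 4 of 6 co-factors were called lower in siControl and 4 of 6 in siRFX7, where 19.6% and 20.3% of all genes were, and none differed between them at an adjusted p under 0.05 by the normal test.

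ANKRA2, the paralogue of RFXANK, was chosen for mention after its value was seen. By the authors' deposited tables it rose by 1.33 ± 0.12 (SE; adjusted p 4.55e-29) with Nutlin-3a in siControl and by 1.41 ± 0.14 (adjusted p 4.75e-23) in siRFX7. By the authors' deposited tables, the siRFX7 effect on it was -0.07 ± 0.16 with DMSO and 0.02 ± 0.10 with Nutlin-3a. Of the ankyrin-repeat adaptor network (ANKRA2, HDAC4, HDAC5, HDAC9, CCDC8 and LRP2), 1 of 6 was called with siRFX7 under Nutlin-3a, where 32.6% of all genes were: CCDC8, a binding partner of these adaptors, at -0.39 ± 0.10 (SE; adjusted p 8.93e-04) in the authors' deposited table. Under DMSO 2 of 5 were called, against 37.4% of all genes: CCDC8 at -0.46 ± 0.09 (SE) and HDAC9, a class IIa histone deacetylase named after its value was seen, at 0.25 ± 0.06 in the authors' deposited table. The highest under Nutlin-3a was LRP2, the endocytic receptor megalin, at 0.14 ± 0.58 with a base mean of 6.76.

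Genes of the primary cilium, the known target class of RFX1 to RFX3, went both ways. With siRFX7, 2 of 15 were called higher and 3 lower under DMSO (19.9% and 17.5% of all genes), and 2 of 14 higher and 1 lower under Nutlin-3a (17.2% and 15.4%), with medians of -0.08 and 0.02 by the authors' deposited tables. Under Nutlin-3a ALMS1, a centrosomal protein, was the lowest at -0.15 ± 0.05 (SE; adjusted p 7.71e-03) in the authors' deposited table. With Nutlin-3a 6 of 15 were called higher and 3 lower in siControl (18.3% and 19.6% of all genes), and 8 of 15 higher and 2 lower in siRFX7 (18.7% and 20.3%), and 0 of 15 differed between them (normal test on the deposited values, adjusted p under 0.05; unadjusted, 0 of 15 were under 0.05).

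**Figure D4:**
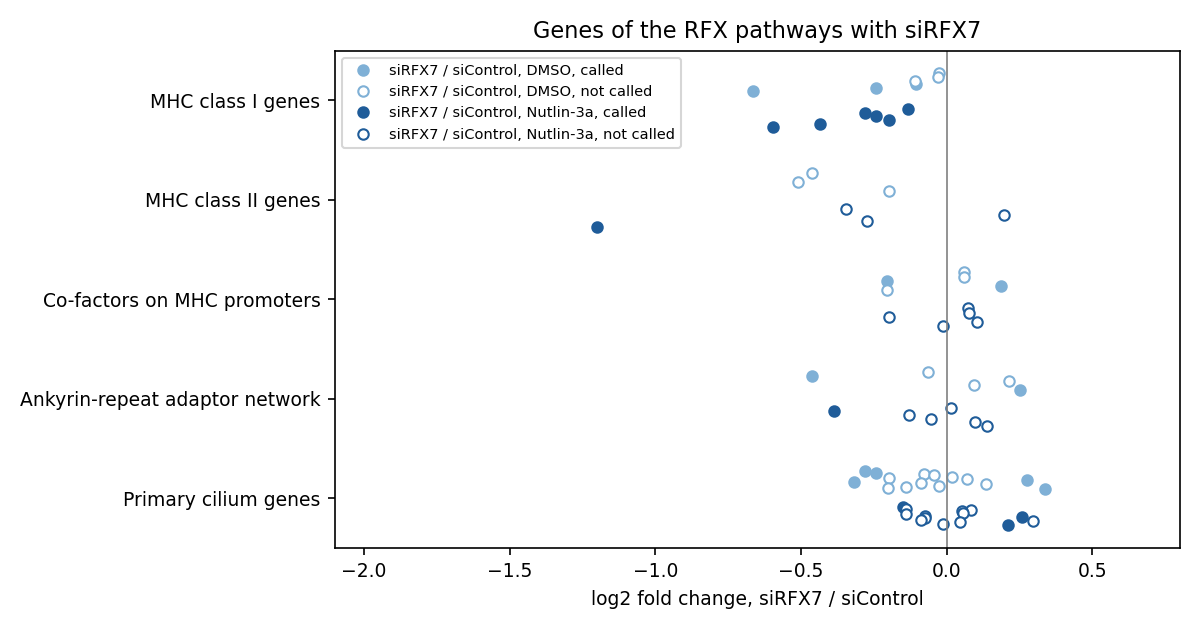
Log2 fold change with siRFX7 for the genes of 5 lists in the authors' deposited tables, under DMSO (light) and Nutlin-3a (dark); each point is a gene, filled where called. MHC class I genes lie between -0.66 and -0.03 under DMSO and between -0.60 and -0.13 under Nutlin-3a, and HLA-DQB1 lies at -1.20 under Nutlin-3a.

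Short words in 3′ UTRs moved with the siRFX7 effect and are given beside it, since an siRNA can pair with a transcript by its seed. Both words were picked in earlier work from these same fold changes. The heptamer GTATCTA was in a 3′ UTR of 22.3% of 1760 protein-coding genes called lower with siRFX7 under both treatments, of 5.33% of 2346 called higher and of 6.80% of 7057 others (GENCODE 29, base means of 100 or more). The hexamer GACGTA was in 46 of the 1760, 281 of the 2346 and 281 of the 7057. Among the members, RFX7 and RFX3 carry the heptamer in a 3′ UTR and RFXAP the hexamer, while the 3′ UTRs of RFX1, RFX2, RFX5 and RFXANK carry neither. RFX3 and RFX7 have the longest 3′ UTRs of the members, at 6745 and 6062 bases, against 248 to 1671 in the others. The sites, with the word in capitals, lie at chr15:56093299-56093328 (minus strand), chr9:3222691-3222720 (minus strand) and chr13:36828366-36828395 (plus strand) of GRCh38.
RFX7: tgtagcacactGTATCTAaagacatatgta
RFX3: caaaagttcatGTATCTActtcattgtgca
RFXAP: cattttatataGACGTAaggaaagtgatta
The part of these words, or of other pairing of either siRNA, in the change of any member was not tested.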

How the data were processed

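The 16 libraries were poly(A) RNA, made with a stranded kit per the labels' protocols, and grouped by title. Per the submitters' processing notes, the authors used build hg38, featureCounts 1.6.5 and DESeq2 1.20.0, among other tools; the annotation and the strand setting are not given in the sources used here. Values come from the 4 deposited tables: base mean, a signal the authors computed as mean size-factor normalised count over 8 libraries; log2 fold change with its SE, by the authors; the deposited Wald statistic, a score used for no result; and the authors' p-value and adjusted p-value. The deposited adjusted p equals the Benjamini-Hochberg adjustment over the genes of each table. Whether fold changes were shrunken is not stated. Signs of RFX7, CDKN1A and MDM2 set the direction (siRFX7 over siControl, Nutlin-3a over DMSO).

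Group levels were solved from base mean and fold change. The siControl groups come from their Nutlin-3a table, and the siRFX7 groups from these times the deposited siRFX7 fold, since tables were normalised separately; this scaling was chosen after the tables were seen. Levels per kilobase use the union of exons in GENCODE 29. The difference of the Nutlin-3a responses was the siRFX7 value less the siControl value of the deposited log2 fold changes. It had an SE from both SEs, a two-sided normal p and adjustment over 21339 genes. The step was tested on simulated data with normal noise of the deposited SEs, so the simulation could not check those SEs. Python 3.11.15, numpy 2.4.6, pandas 2.3.3 and scipy 1.17.1 were used.

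Named genes were the 7 members, the 3 nearest genes by Euclidean distance over 4 log2 fold changes for RFX5, RFX7 and RFXAP, and from each list the genes whose responses differed or otherwise the highest and lowest with siRFX7 under Nutlin-3a; others are said to be chosen later. Some genes the rule names are not reported here. The members and lists were chosen with earlier results of these data known. Alternatives were other thresholds, a filter on base mean, centring, Bonferroni adjustment, the other pair of tables and a robust SD.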

Additional observations from a re-analysis of the deposited data

Results flagged for a closer look

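Responses to Nutlin-3a that differed between siRFX7 and siControl by the test of the difference (two-sided normal test on the deposited values, Benjamini-Hochberg over 21339 genes) are given here for RFX5, the only one of the 7 RFX genes and partners that differed, and for genes of the lists. RFX5 differed by -0.64 ± 0.06 on the log2 scale (siRFX7 minus siControl, adjusted p 1.18e-19). Among the MHC class II genes, HLA-DQB1 differed by -1.01 ± 0.28 (adjusted p 0.0362). The candidate RFX7 targets MXD4 (-1.44 ± 0.12), PDCD4 (-0.60 ± 0.09), PIK3IP1 (-2.17 ± 0.25) and PNRC1 (-1.30 ± 0.13) also differed. These 6 responses were lower in siRFX7, as were 163 of the 200 called over the whole table. With 4 libraries behind each group mean and no value of a single library, no group could be examined for a library far from the others.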

How the results depend on the processing

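No paired analysis was possible because the tables hold no value of a single library; leaving out each replicate was not run for the same reason. With a size of at least 0.25, 3 of the 7 members were called for Nutlin-3a in siControl and 3 for siRFX7 under Nutlin-3a. With Bonferroni adjustment, the Nutlin-3a comparisons called 2 in siControl and 3 in siRFX7, and siRFX7 under Nutlin-3a called 3. The calls lost were those of RFX1, RFX2, RFX7 (with Nutlin-3a only) and RFXANK; the calls of RFX5 in all 5 tests and of RFX7 and RFXAP with siRFX7 were kept under every alternative run. No member changed sign under any alternative run, but only centring and the other pair of tables alter a fold change at all. Of 35 values of members, 35 kept their side of the threshold when fold changes were centred on the median gene, and 7 of 7 differences did with the other pair of tables and with a robust SD. The other pair of tables holds the same libraries and gives nearly the same differences, so its agreement is no separate support. Over all genes, Bonferroni adjustment gave 4196 calls instead of 8853 for Nutlin-3a in siControl, 3922 instead of 8355 in siRFX7, 2827 instead of 7288 for siRFX7 under DMSO and 2419 instead of 6625 under Nutlin-3a. A size of at least 0.25 gave 4501 and 4020 for siRFX7 under DMSO and Nutlin-3a. At an adjusted p of 0.01, 125 instead of 200 responses differed, and with a robust SD 135 did. With that robust SD, 1 named gene outside the members lost its call. Group levels of members from the other tables, which hold the same libraries, moved by at most 0.00642 on the log2 scale once scaled. The low counts of RFXAP, CIITA, LRP2 and most class II genes limit what could be detected for them.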
